A study of Mus musculus with 34 samples.

Results

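The TRIM genes encode a large family of ubiquitin ligases, and their mRNA was followed here through 9 groups of mouse monocytes and macrophages from MC38 and LLC tumors, spleens and culture. Members were the genes of a table of estimated counts whose symbol is Trim, a number and at most 1 letter, which held for 66 of 24475 genes. The question was which members follow the higher interferon response of cells exposed to MC38 over cells exposed to LLC, and which do not. MC38 is a mouse colon adenocarcinoma line and LLC is the Lewis lung carcinoma line.

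All 34 libraries came from C57/Bl6 mice. MC38 tumors gave Ly6C+ CD88+ Sca1+ monocytes (TuMon1) and macrophages, LLC tumors gave Ly6C+ CD88+ Sca1- monocytes (TuMon2) and macrophages, and the spleens of mice with each tumor gave Ly6C+ monocytes, with 4 libraries in each of these 6 groups. Bone marrow monocytes in culture were left untreated (Control, 4 libraries), given LLC supernatant (3 libraries, labelled Sca1-) or given MC38 supernatant (3 libraries, labelled Sca1+). Each tumor type is 1 line, and in tumor monocytes and culture the Sca1 phenotype coincides with the line, so line and phenotype cannot be told apart. Whether replicates were separate animals or cultures is not given in the sources used here, so p-values cover the spread between these libraries. In such bulk RNA, fewer cells of a type and less RNA per cell cannot be told apart.

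A TRIM protein is built from a RING finger, 1 or more B-box zinc fingers and a coiled coil, followed in most members by a B30.2 (PRY-SPRY) domain that binds the target. The RING finger passes ubiquitin from a conjugating enzyme to that target. Several members are induced by interferons and either restrict viruses or tune the RIG-I, cGAS-STING and Toll-like receptor pathways, while the TIF1 members (Trim24, Trim28, Trim33, Trim66) act on chromatin and others serve in development, neurons or muscle. Interferons switch on many of their targets through the factor ISGF3, which binds the interferon-stimulated response element (ISRE).

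Library totals ran from 13047724 to 26966603 counts. Levels below are CPM, counts as a share of the TMM-scaled library total, scaled separately for the 24 libraries from mice and the 10 from culture. A gene was called where edgeR's quasi-likelihood test, 2-sided, gave a Benjamini-Hochberg adjusted p under 0.05 over all genes tested, and differences are log2 with their SE. The 8 monocyte and macrophage marker genes summed to 5970 CPM or more in every library. High levels of RNA of other tissues were found in 5 libraries, which an alternative left out. In MC38 spleen replicates 1 to 3 the 5 fat cell genes reached 7610 CPM, against at most 1.81 CPM in LLC spleen. The 4 connective tissue genes reached 2850 CPM in MC38 supernatant replicate 3. In Control replicate 2 the 6 muscle genes summed to 251 CPM and the 5 epithelial genes to 85.7 CPM. Acta1 (2336), Actc1 (1028), Krt19 (563) and Krt8 (484) held most of these counts, while Ckm (3) and Tnnt2 (2) stayed low. Col1a1 had 362 counts there, but Col1a2 had 2. Fat cell genes were also seen at lower levels in tumor libraries that were kept, up to 68.1 CPM in MC38 macrophage replicate 4 (group median 6.17 CPM), 21.5 CPM in MC38 tumor monocyte replicate 4 and 16.3 CPM in LLC macrophage replicate 2. Epithelial genes summed to between 91.5 and 143 CPM in LLC macrophages and between 5.49 and 8.08 CPM in MC38 macrophages, with Epcam and Krt19 at 0 in LLC macrophages. In tumor monocytes they summed to 41.2 to 65.5 CPM with LLC, Krt19 at 0, and 5.59 to 7.83 CPM with MC38. Cdh1 alone made most of the LLC sums, at 1458 to 2325 counts in macrophages and 513 to 1107 counts in tumor monocytes. Krt8 and Krt18 were also higher with LLC, but on at most 45 counts in a library. The sum of the neutrophil genes was also higher in LLC tumor monocytes (65.9 to 93.6 against 24.5 to 30.4 CPM). Mmp8 made most of it (750 to 1543 against 274 to 427 counts), while Ly6g went the other way (14 to 39 against 90 to 133 counts). The sum of dendritic cell genes was lower with LLC (3.18 to 5.22 against 11.1 to 14.7 CPM, Siglech at 0 with LLC). So was that of T and NK cell genes (0.88 to 2.04 against 4.31 to 6.7 CPM, Cd3e at 0 with LLC). Ccr7 (5 to 23 against 105 to 185 counts) and Gzmb (3 to 5 against 46 to 85 counts) differed most in these 2 lists. Flt3 (14 to 49 against 24 to 35 counts) and Cd3d (7 to 23 against 17 to 32 counts) overlapped between the groups. Whether other cells were the source of these RNAs, or had a part in the monocyte and macrophage differences, was not tested.

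The promoters are shown first, because the members that followed the MC38 difference often carried the letters of an ISRE near the transcription start. RefSeq windows of 300 bases (GRCm38.p6, 250 before to 50 after the start) were held for 51 of the 66 members and were searched on both strands for an ISRE-type pattern, GAAA followed by 2 bases of any kind and GAAA again. That pattern occurred in 3.99% of 27025 genes and in 8 of the 51 members. It occurred in 7 of the 10 members with a window that were later called higher with MC38 in tumor monocytes and in culture (70%), in 1 of 21 tested members that were not (4.76%, Trim2) and in 0 of 20 members that were too low to test. Among the 7, Trim12a, Trim12c, Trim30a, Trim30d and Trim34a are related genes of 1 chromosome 7 cluster, so the 7 are not independent cases. The matching stretches are printed below in the direction of the motif, 5′ to 3′, with the match in capitals; in Trim21 and Trim26 the capitals mark 2 overlapping matches.
Trim34a (chr7:104244457-104244486, minus strand): gcagagaaaaGAAACTGAAActccaaacca
Trim12a (chr7:104315466-104315495, plus strand): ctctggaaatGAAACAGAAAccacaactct
Trim12c (chr7:104353359-104353388, plus strand): agctggaaatGAAACAGAAAccacaactct
Trim30a, upstream start (chr7:104465210-104465239, plus strand): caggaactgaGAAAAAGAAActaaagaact
Trim30a, downstream start (chr7:104446104-104446133, plus strand): caggaactgaGAAAAAGAAActaaaaacaa
Trim30d (chr7:104507871-104507900, plus strand): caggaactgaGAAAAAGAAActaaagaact
Trim21 (chr7:102565447-102565476, minus strand): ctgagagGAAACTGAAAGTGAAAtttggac
Trim26 (chr17:36836979-36837008, minus strand): ggcccgaGAAAAGGAAAGTGAAAtcggaag
Trim2, which did not follow (chr3:84212791-84212820, plus strand): ctgtcttagaGAAAAGGAAAccaaagctga

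Trim30a at its upstream start and Trim30d carried the same 30 bases. Their matches ended 27 and 32 bases before the start. In Trim12a and Trim34a the match began 11 bases after the start, and in Trim26 the pair of matches ended 145 bases before it. The exact pattern was absent from the windows of Trim25, Trim30b and Trim56, which also followed the MC38 difference. Their closest stretches each differed at 1 of the 8 fixed letters, counted from 1 at the motif's 5′ end: A2G in Trim25, A2C in Trim56 and G7T in Trim30b. A stretch that close is common, since 35.4% of all windows hold a match with at most 1 difference.
Trim25 (chr11:88999389-88999418, minus strand): cagcgaggaaGGAATCGAAActgaacagga
Trim56 (chr5:137116181-137116210, plus strand): ttgactacctGCAAGAGAAAcaaaactgaa
Trim30b (chr7:104358608-104358637, minus strand): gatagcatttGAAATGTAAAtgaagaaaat

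A GAS-type pattern (TTCNNNGAA, N being any base) was also searched in these windows. It occurred in 9.55% of 27025 genes, in 5 of the 51 members and in 0 of the 10 members with a window that followed. A match describes the letters of a window. Binding was not measured.

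Expression was high enough to test for 42 members in mice and 41 in culture, and the other 24 are described at the end. In tumor monocytes 15 of 42 members were higher with MC38 and 6 were lower, while over all 13200 genes tested 26.8% were higher and 22% lower. In culture 16 of 41 members were higher with MC38 than with LLC supernatant and 5 were lower, against 21.6% and 18.5% of 12603 genes. As a family the TRIM genes thus shifted little, with medians of 0.18 in tumor monocytes and 0.27 in culture beside 0.06 and 0.05 for all genes. The 24 interferon response genes used as a yardstick (Isg15, Ifit1, Irf7 and others) were called higher in 24 of 24 cases in each, with medians of 1.25 and 2.44. That list was fixed with earlier results of these data known, so its calls describe the MC38 difference and do not test it.

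A member was said to follow when it was called higher with MC38 both in tumor monocytes and in culture. This held for 12 of the 41 members tested in both: Trim11, Trim12a, Trim12c, Trim14, Trim21, Trim25, Trim26, Trim30a, Trim30b, Trim30d, Trim34a and Trim56. Among all genes tested in both it held for 9.78%. In each of the 12, every MC38 library lay above every LLC library in both comparisons; over all genes that held for 27.9% in tumor monocytes, for 32.5% in culture, and for 9.05% in both together with the calls. Opposite calls were made for Trim3, Trim8 and Trim37 (7.14% of all genes), Trim59 was lower in both (7.44%), 10 members were called in 1 of the comparisons only (42.1%), and 15 were called in neither (33.5%). The 12 followed under RLE and upper quartile scaling, both other filters, a replicate block and DESeq2, and leaving out single libraries ended the call of Trim25 or Trim12c only, as given with their values.

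**Figure D1:**
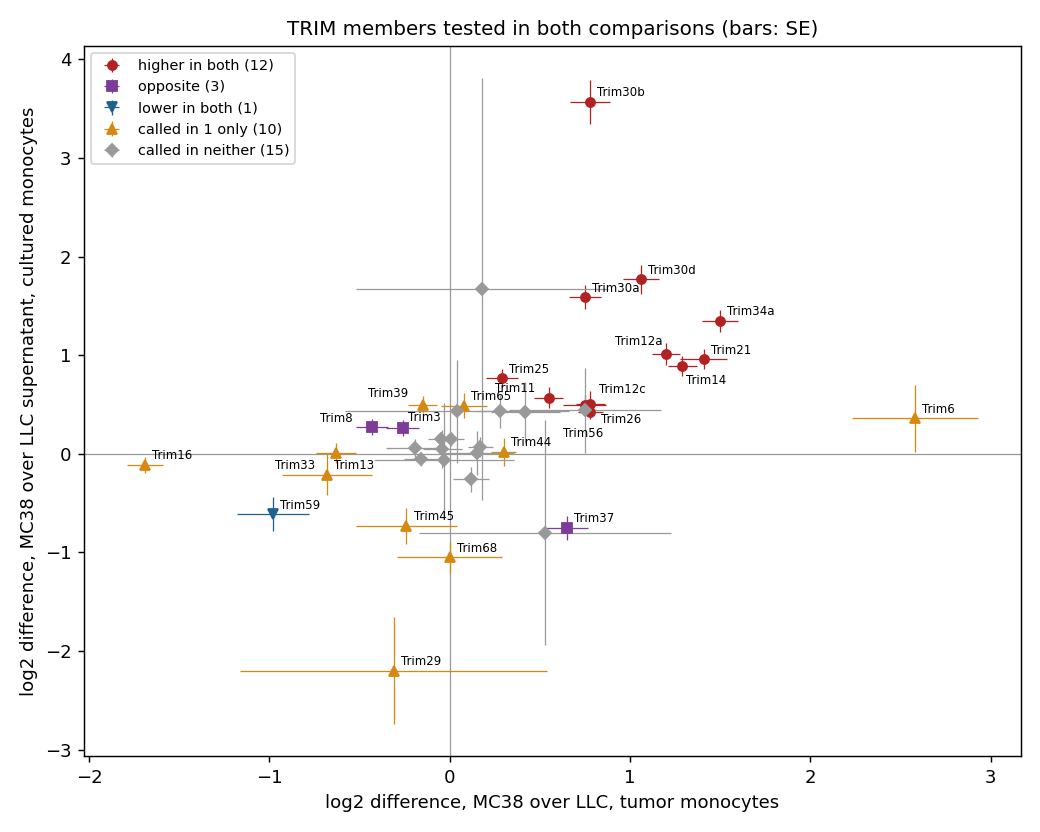
Log2 difference MC38 over LLC of the 41 TRIM members tested in both comparisons, in tumor monocytes (x axis) and in cultured monocytes given tumor supernatant (y axis); bars are the SE. The 12 members that follow lie in the upper right, Trim30b highest in culture at 3.57, while Trim6 reaches 2.58 in tumor monocytes and 0.36 in culture and Trim16 lies at -1.69 and -0.11.

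Of the 12 members that follow, 6 lie in 1 cluster on chromosome 7. The Trim5-Trim30 cluster, a rodent-expanded group related to the retrovirus restriction factor TRIM5, had 8 members with enough counts. Of these, 7 were higher in tumor monocytes and 0 lower (26.8% and 22% of all genes), with a median of 0.92. In GRCm38 they run from Trim6 (chr7:104218795-104235152, plus strand) and Trim34a (chr7:104244448-104262244, plus strand) through Trim12a (chr7:104299893-104315558, minus strand), Trim34b, Trim12c (chr7:104338754-104353358, minus strand) and Trim30b (chr7:104355398-104358646, minus strand) to Trim30a (chr7:104409025-104465193, minus strand) and Trim30d (chr7:104470014-104507853, minus strand). In macrophages 7 of the 8 were higher with MC38 (median 1.25, 22.4% of all genes higher) and in culture 6 of 8 (median 1.18, 21.6%). In spleen monocytes 0 of 8 were called by edgeR (median -0.1, 28.4% of all genes called), with 2 at an unadjusted p under 0.05, and 0 by DESeq2. Without MC38 spleen replicate 4, the MC38 spleen library with little fat RNA, 5 of the 8 were called lower with MC38 there (Trim12a -0.24, Trim12c -0.2, Trim30a -0.28, Trim30b -0.39 and Trim30d -0.28). Of all 14051 genes tested in that setting, 3553 were called lower and 3086 higher. Trim30a was also called lower with the replicate block (adjusted p 0.049) and without LLC spleen replicate 1 (0.0446).

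Trim34a, a cluster gene next to Trim6, had 92.4, 111, 106 and 91.4 CPM in the 4 libraries of MC38 tumor monocytes and 33.1, 37.5, 32.4 and 38.4 CPM in those of LLC tumor monocytes. In culture it had 106, 106 and 86.8 CPM with MC38 supernatant, 39.5, 39.3 and 38.8 CPM with LLC supernatant and between 29.1 and 36.9 CPM in Control. Every MC38 library stood far above every LLC library in both settings, and LLC supernatant left the gene near Control. The difference was 1.5 ± 0.10 in tumor monocytes (adjusted p 1.09e-11), 1.44 in macrophages and 1.35 ± 0.11 in culture (adjusted p 7.05e-06), while in spleen it was -0.05. Its near copy Trim34b had at most 5.14 CPM in any library and was called in none of these. Trim34a shares 39.8% and Trim34b 56.8% of its 50-base stretches with other members, mostly with each other, so the split of reads between them is uncertain. The sum of the pair differed by 1.44 in tumor monocytes and 1.32 in culture, both called.

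Trim12a had 79.7, 81.4, 80.2 and 84.1 CPM in MC38 and 32.7, 34.1, 33.4 and 41.4 CPM in LLC tumor monocytes. Its neighbor Trim12c, which is known to act with TRAF6 in interferon induction, had 96.5, 91.6, 104 and 102 CPM against 53.1, 54.6, 57.0 and 65.0 CPM. Neither gene's groups overlapped, and Trim12a moved further, by 1.20 ± 0.08 (adjusted p 1.26e-11) against 0.78 ± 0.08 for Trim12c (adjusted p 1.9e-08). The ratio of Trim12c to Trim12a was between 1.12 and 1.30 in MC38 tumor monocytes and between 1.57 and 1.71 in LLC tumor monocytes. In culture Trim12a differed by 1.01 ± 0.11 (adjusted p 6.54e-05) and Trim12c by 0.51 ± 0.13 (adjusted p 0.0122). The Trim12c call in culture was lost without any 1 LLC supernatant replicate (adjusted p 0.0547 to 0.0618) or without MC38 supernatant replicate 1 (0.0593). Trim12c shares 33% and Trim12a 10.4% of 50-base stretches with cluster genes, most with Trim5, which was not analysed here.

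Trim30a, known to restrain Toll-like receptor signaling through TAB2 and TAB3, had 571, 634, 640 and 611 CPM in MC38 and 339, 392, 340 and 389 CPM in LLC tumor monocytes. Trim30d had 321, 339, 344 and 344 CPM against 150, 178, 153 and 165 CPM. Trim30b, the least abundant of the 3, had 48.1, 46.2, 50.4 and 52.4 CPM against 26.2, 30.7, 26.5 and 31.3 CPM. All 3 genes were set apart without overlap, by 0.75 ± 0.09, 1.06 ± 0.10 and 0.78 ± 0.11. Read sharing was low for Trim30b (0.55% of 50-base stretches) and modest for Trim30a (5.98%) and Trim30d (7.49%), and the sum of the 3 rows differed by 0.80 in tumor monocytes, 1.30 in macrophages and 1.68 in culture, each called.

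The 3 Trim30 genes moved further in culture than in the tumor. With MC38 supernatant Trim30b had 28.2, 24 and 19.7 CPM, with LLC supernatant 2.5, 1.46 and 2.09 CPM, and in Control between 4.23 and 5.46 CPM. LLC supernatant thus stood below Control and MC38 supernatant far above it, with differences from Control of -1.30 ± 0.20 and 2.27 ± 0.19. Trim30a had 616, 557 and 441 CPM with MC38 and 182, 181 and 173 CPM with LLC supernatant, and Trim30d had 290, 255 and 216 against 75.4, 76.2 and 72.0 CPM. The differences between supernatants were 3.57 ± 0.22 for Trim30b, 1.59 ± 0.12 for Trim30a and 1.77 ± 0.15 for Trim30d. In a fit over all 34 libraries the tumor difference was smaller than the culture difference by 2.75 for Trim30b (adjusted p 8.08e-11), and it was also smaller for Trim30a (-0.80, adjusted p 0.000206) and Trim30d (-0.67, adjusted p 0.00657). The lowest MC38 supernatant value of all 3 genes was in replicate 3, which carries connective tissue RNA, and each difference stayed called without it.

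**Figure D2:**
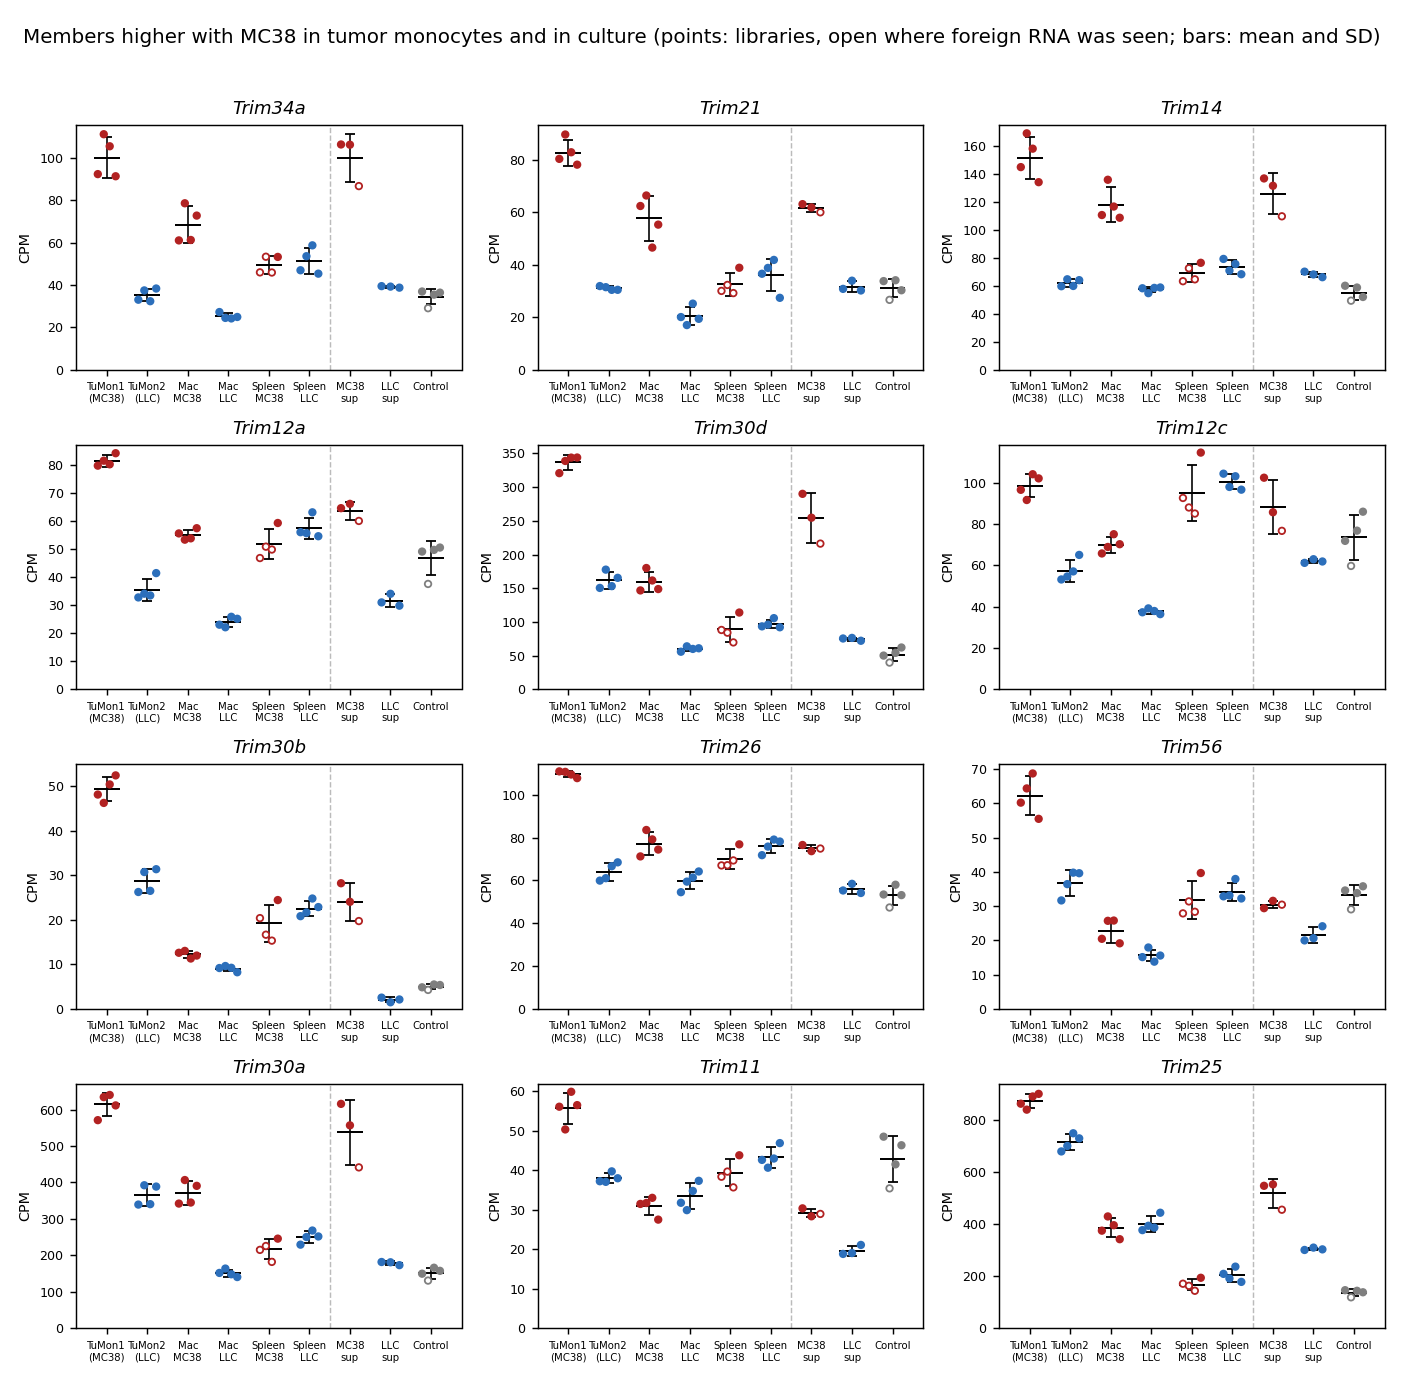
CPM of the 12 TRIM members that follow, in each of the 34 libraries (points; open points are the 5 libraries with RNA of other tissues), with mean and SD per group; red groups had MC38, blue groups LLC, gray is Control, and the dashed line separates mice from culture. The red tumor monocyte and supernatant points lie above the blue ones in every panel, while the spleen groups lie close together.

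Outside the cluster, 5 members that sense or signal infection followed: Trim21, Trim14, Trim26, Trim56 and Trim25. They belong to a list of TRIMs known in innate signaling, of which 13 were tested. Of these 13, 6 were higher and 2 lower in tumor monocytes (26.8% and 22% of all genes), with a median of 0.15. Trim21 (chr7:102557920-102565482, minus strand), a cytosolic receptor for antibody-coated virus, had 80.3, 89.6, 82.8 and 78.1 CPM in MC38 and 31.8, 31.4, 30.4 and 30.4 CPM in LLC tumor monocytes. In culture it had 63.0, 61.8 and 59.9 CPM with MC38 supernatant, 30.8, 33.9 and 30.2 CPM with LLC supernatant and 26.6 to 34.1 CPM in Control. In culture the LLC libraries lay within the range of Control and the MC38 libraries above it. Trim21 was higher with MC38 by 1.41 ± 0.13 in tumor monocytes (adjusted p 1.83e-09), 1.5 in macrophages and 0.96 ± 0.10 in culture (adjusted p 3.24e-05).

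Trim14 (chr4:46505072-46536150, minus strand), an adaptor of MAVS that has no RING finger, had 145, 169, 158 and 134 CPM in MC38 and 59.6, 64.6, 59.8 and 64.0 CPM in LLC tumor monocytes. In culture it had 137, 131 and 110 CPM with MC38 and 70.0, 68.1 and 66.1 CPM with LLC supernatant. The groups were far apart in both, by 1.29 ± 0.08 (adjusted p 5.2e-12) and 0.89 ± 0.10 (adjusted p 7.21e-05). Trim14 overlaps Nans on the opposite strand, and whether the counting used strand is not given in the sources used here; Nans differed by -0.19 in tumor monocytes and 0.02 in culture, called in neither. The tumor differences of Trim14 and Trim21 exceeded those in culture by 0.44 (adjusted p 0.0164) and 0.50 (adjusted p 0.0427). The first was lost without MC38 supernatant replicate 3 (adjusted p 0.0803), and the second without any 1 LLC supernatant replicate (0.0541 to 0.0770), MC38 supernatant replicate 3 (0.106) or MC38 tumor monocyte replicate 2 (0.0525), with the replicate block (0.0717), with no filter (0.0518) and without the 5 libraries with RNA of other tissues (0.0515).

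Trim26, which acts on nuclear IRF3, had 108 to 111 CPM in MC38 and 59.9 to 68.4 CPM in LLC tumor monocytes, a difference of 0.78 ± 0.07. Trim56, which ubiquitinates STING, had 55.5 to 68.8 CPM against 31.7 to 39.8 CPM, a difference of 0.75 ± 0.12. In culture they differed by 0.42 ± 0.07 and 0.50 ± 0.10. The 2 genes reached that difference from different sides of Control: Trim26 was raised by MC38 supernatant (0.50) and not called with LLC supernatant (0.08), while Trim56 was lowered by LLC supernatant (-0.63) and not called with MC38 supernatant (-0.13).

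Trim25, the ligase that activates RIG-I and also attaches ISG15, followed least in the tumor. It had 864, 841, 891 and 901 CPM in MC38 and 680, 701, 750 and 730 CPM in LLC tumor monocytes. The groups did not overlap, but the difference was 0.29 ± 0.09 (adjusted p 0.0102), and it lost its call without any 1 LLC tumor monocyte replicate (adjusted p 0.0577 to 0.114) or without MC38 replicate 4 (0.0946). Both tumor groups stood high above spleen, where MC38 mice had 144 to 194 and LLC mice 178 to 237 CPM: Trim25 rose from spleen to tumor by 2.38 ± 0.09 with MC38 and by 1.81 ± 0.09 with LLC. In culture it had 548, 553 and 456 CPM with MC38, 301, 310 and 304 CPM with LLC supernatant and 119 to 147 CPM in Control, so it rose with each supernatant, by 1.92 and 1.15. The difference between supernatants was 0.77 ± 0.09 (adjusted p 0.000132).

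Trim11, a ligase of protein quality control, followed although both supernatants lowered it. It had 56.1, 50.3, 59.8 and 56.5 CPM in MC38 and 37.2, 37.1, 39.7 and 38.0 CPM in LLC tumor monocytes, a difference of 0.55 ± 0.08 (adjusted p 3.25e-06). In culture Control had 35.4 to 48.5 CPM, MC38 supernatant 28.3 to 30.3 CPM and LLC supernatant 18.8 to 21.1 CPM. Both supernatants stood below every Control library, by -0.56 and -1.13, and MC38 remained above LLC by 0.57 ± 0.11 (adjusted p 0.0024). In macrophages Trim11 differed by -0.11 (adjusted p 0.27), and the change of its difference from monocytes to macrophages was itself called, at -0.66 ± 0.11 (adjusted p 0.00021).

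On a scale of CPM per kilobase of exon, which allows genes to be ranked, Trim25 and Trim30a led the family. In MC38 tumor monocytes Trim25 had 151.9 and Trim30a 149.4 CPM per kilobase, followed by Trim30d at 89.66. In LLC tumor monocytes the order was the same at 124.3, 88.84 and 43.01 CPM per kilobase. Trim30a led in both spleen groups, in MC38 macrophages and with MC38 supernatant (130.8), and Trim28 led in Control culture (47.91). On the CPM scale the members summed to a mean of 3190 CPM in MC38 and 2260 CPM in LLC tumor monocytes, and to 2700, 1640 and 1530 CPM with MC38 supernatant, LLC supernatant and in Control. Trim25, Trim30a and Trim30d together made 57.2% ± 1.1 (SD, n = 4) of that sum in MC38 tumor monocytes and 22.1% ± 1.17 (SD, n = 4) in Control.

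Trim8, Trim3 and Trim37 went opposite ways in tumor and culture. Trim8, which amplifies NF-kappaB signaling through TAK1 and binds SOCS1, had 102, 103, 99.8 and 92.2 CPM in MC38 and 133, 139, 131 and 131 CPM in LLC tumor monocytes. It was lower with MC38 by -0.43 ± 0.09 there (adjusted p 0.000223) and by -0.82 in macrophages. In culture it had 134, 140 and 116 CPM with MC38 and 107, 104 and 113 CPM with LLC supernatant, higher by 0.27 ± 0.08 (adjusted p 0.0187), and both supernatants were above the 60.0 to 65.3 CPM of Control. The culture call of Trim8 was lost with RLE scaling (adjusted p 0.0758), upper quartile scaling (0.0608), the replicate block (0.0507) and DESeq2 (0.0522), and without LLC supernatant replicate 1 or 2 or MC38 supernatant replicate 1 or 2 (0.0592 to 0.081).

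Trim3, an NHL repeat ligase studied mainly in neurons, had 24.6 to 28.6 CPM in MC38 and 29.7 to 34.1 CPM in LLC tumor monocytes. It was lower with MC38 by -0.26 ± 0.09 in tumor monocytes (adjusted p 0.0195) and -0.55 in macrophages, and higher by 0.26 ± 0.08 in culture (adjusted p 0.0264). Its culture call was lost with upper quartile scaling (adjusted p 0.0655), the stricter filter (0.0544), the block (0.0674), without any 1 LLC supernatant replicate (0.0635 to 0.096) and without MC38 supernatant replicate 3 (0.0875); its tumor call was lost without MC38 tumor monocyte replicate 2 (0.0919).

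Trim37, a ligase of peroxisome and centrosome biology, was the firmest of the opposite calls. It had 8.86, 8.52, 10.5 and 8.11 CPM in MC38 and 7.04, 5.37, 6.13 and 4.57 CPM in LLC tumor monocytes, higher with MC38 by 0.65 ± 0.12 (adjusted p 9.39e-05). In culture MC38 supernatant gave 16.9, 15.8 and 22.7 CPM and LLC supernatant 31.3, 31.1 and 30.7 CPM, lower with MC38 by -0.75 ± 0.12 (adjusted p 0.000869). Neither pair of groups overlapped, and Control, at 36.6 to 41.7 CPM, was above both supernatants. The difference between tumor and culture was 1.45 ± 0.16 (adjusted p 4.67e-08).

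Trim59, a membrane-anchored ligase, was lower with MC38 in both settings. It had 4.09, 4.52, 3.84 and 5.14 CPM in MC38 and 8.71, 8.89, 8.32 and 8.80 CPM in LLC tumor monocytes, a difference of -0.98 ± 0.20 (adjusted p 0.000238). In culture it fell from 36.3 to 48.7 CPM in Control to 11 to 13.2 CPM with LLC and 6.14 to 9.87 CPM with MC38 supernatant. The difference between supernatants was -0.61 ± 0.17 (adjusted p 0.0155) and lost its call without LLC supernatant replicate 2 or 3 or MC38 supernatant replicate 1 or 2 (adjusted p 0.0568 to 0.0736). In macrophages Trim59 differed by 0.33 (adjusted p 0.168), and the change of the difference from monocytes was called, at 1.31 ± 0.28 (adjusted p 0.00176).

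Trim16 had the most negative difference of the 42 members tested in tumor monocytes and was not called in culture. This RING-less member helps galectin-3 direct autophagy to damaged lysosomes. It had 6.60, 7.95, 7.01 and 6.55 CPM in MC38 and 20.5, 24.4, 21.3 and 24.4 CPM in LLC tumor monocytes. Macrophages were lower still, with 1.67, 1.54, 1.73 and 1.26 CPM in MC38 and 13.6, 13.4, 11.1 and 11.6 CPM in LLC. The difference was -1.69 ± 0.10 in monocytes (adjusted p 1.9e-12) and -3.01 ± 0.12 in macrophages (adjusted p 5.23e-16), with the change between them at -1.32 ± 0.15 (adjusted p 1.59e-06). In culture both supernatants lowered it from 41.4 to 49.2 CPM in Control, to 15.4 to 17.2 CPM with MC38 and 17.6 to 18.0 CPM with LLC, and the difference between them was -0.11 with a 95% interval of -0.27 to 0.05. The tumor and culture differences themselves differed by -1.54 ± 0.14 (adjusted p 2.06e-09).

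Trim6 is, with the low Trim34b, a cluster gene that was not called in culture, although its difference in tumor monocytes was the largest of the 42 members tested. It makes unanchored ubiquitin chains that activate the kinase IKK-epsilon. It had 9.20, 7.74, 11.5 and 9.62 CPM in MC38 and 1.58, 1.29, 1.66 and 1.83 CPM in LLC tumor monocytes, a difference of 2.58 ± 0.35 (adjusted p 1.56e-06). In macrophages it had 3.22 to 4.65 against 0.861 to 1.70 CPM, a difference of 1.57 ± 0.35 (adjusted p 0.000616). In culture it had 5.28, 6.86 and 4.46 CPM with MC38, 4.88, 3.87 and 4.18 CPM with LLC supernatant and 0.262 to 0.846 CPM in Control. Both supernatants raised it, by 3.43 and 3.07, and their libraries overlapped, with a difference of 0.36 ± 0.34 (adjusted p 0.438). Without the 5 libraries that carry RNA of other tissues that difference was 0.51 and was called (adjusted p 0.0269). The difference between tumor and culture was 2.25 ± 0.58 (adjusted p 0.00351).

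**Figure D3:**
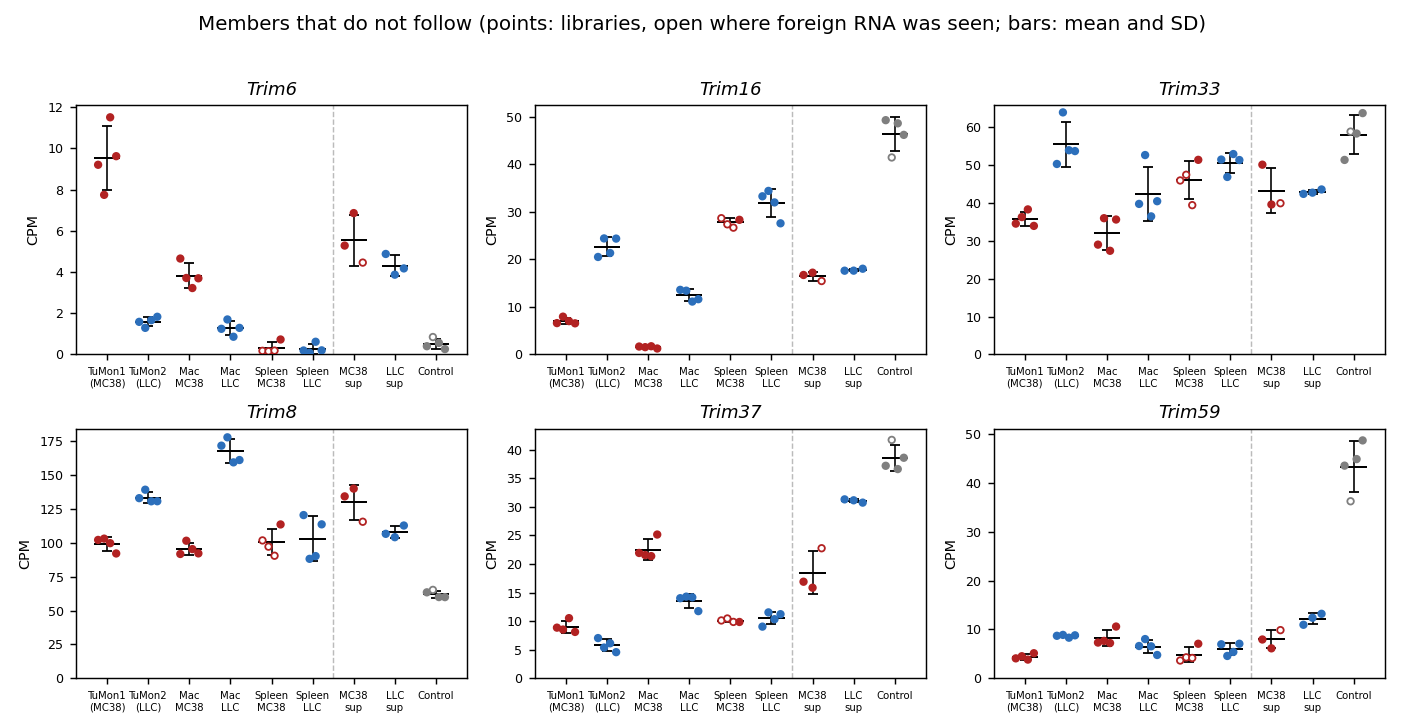
CPM of 6 TRIM members that do not follow, in each of the 34 libraries (points; open points carry RNA of other tissues), with mean and SD per group, colored as MC38 red, LLC blue and Control gray; the dashed line separates mice from culture. Trim6 stands high in MC38 tumor monocytes and between 3.87 and 6.86 CPM with either supernatant, and Trim16 falls to between 1.26 and 1.73 CPM in MC38 macrophages.

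Of the other members called in tumor monocytes only, Trim33 (TIF1-gamma, a chromatin reader and SMAD4 ligase) had 34.5, 36.2, 38.2 and 33.9 CPM in MC38 and 50.2, 63.8, 53.8 and 53.6 CPM in LLC tumor monocytes. It was lower with MC38 by -0.63 ± 0.11 (adjusted p 3.24e-05), by -0.40 in macrophages, and 0.01 in culture with an interval of -0.19 to 0.21. Trim13, a ligase of the endoplasmic reticulum, was lower by -0.68 ± 0.25 (adjusted p 0.029) at 2.18 to 2.85 against 3.08 to 5.52 CPM, and lost that call without LLC replicate 3 (0.122), MC38 replicate 2 (0.087) or MC38 replicate 3 (0.0847). Trim44, which lacks a RING finger, was higher by 0.30 ± 0.07 (adjusted p 0.000625).

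In culture only, Trim39 (0.50) and Trim65 (0.49), a ligase of the RNA sensor MDA5, were called higher with MC38 supernatant. Trim68 was called lower by -1.05 ± 0.16 (adjusted p 0.000509), at 2.75 to 2.94 against 5.69 to 6.01 CPM with LLC supernatant and 4.37 to 5.97 CPM in Control. Trim45 was called lower by -0.73 ± 0.18, at 3.02 to 4.87 against 6.52 to 6.83 CPM. Trim29 was called lower by -2.20 ± 0.54 (adjusted p 0.0156), but on 12 counts over the MC38 and 60 counts over the LLC supernatant libraries, with 0 counts in Control. That call was lost with no filter (0.105) and without any 1 LLC supernatant replicate or MC38 supernatant replicate 1 or 2 (0.0541 to 0.132).

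The chromatin members did not follow. Trim28 (KAP1), the corepressor of KRAB zinc finger proteins, had 87.8 to 103 CPM in MC38 and 91.2 to 107 CPM in LLC tumor monocytes, a difference of -0.05 with a 95% interval of -0.18 to 0.09. In culture the interval was 0.01 to 0.28 around 0.15, which did not pass after adjustment (adjusted p 0.102). Trim24 (TIF1-alpha) differed by 0.12 in tumor monocytes and -0.26 in culture, neither called; without MC38 supernatant replicate 3 the culture difference was -0.44 and was called (adjusted p 0.00577). Its tumor difference exceeded that in culture by 0.44 (adjusted p 0.0185), a call lost without LLC supernatant replicate 3 (0.06), MC38 supernatant replicate 1 (0.0632) or 2 (0.0899), or MC38 tumor monocyte replicate 3 (0.0552). Trim24, Trim28 and Trim33 were all lower than Control with each supernatant: Trim28 had 193 to 203 CPM in Control, 123 to 143 CPM with MC38 and 116 to 118 CPM with LLC supernatant. Trim66, the germ line member, was too low to test in either fit and reached 2.05 CPM in Control replicate 2, which carries RNA of other tissues.

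Other well expressed members were also called in neither comparison, with some calls under single alternatives. Trim27, which acts on the WASH complex of endosomes, differed by -0.16 in tumor monocytes (interval -0.33 to 0.02; called with only the groups compared, adjusted p 0.0401) and -0.05 in culture (interval -0.18 to 0.09). Trim41 differed by 0.01 (interval -0.13 to 0.14) and 0.15 (interval 0.01 to 0.29; called with only the groups compared, adjusted p 0.0184, and without the 5 libraries with RNA of other tissues, 0.00901), and it overlaps Rack1 on the opposite strand, which was lower with MC38 by -0.69 and -0.65. Trim35 differed by 0.17 (interval 0.03 to 0.31; called with upper quartile scaling, adjusted p 0.0268) and 0.07 (interval -0.13 to 0.26), although each supernatant raised it, from 42.3 to 52.5 CPM in Control to 107 to 132 CPM with MC38 and 111 to 112 CPM with LLC. Trim47 was nearly off in Control, at 0.160 to 0.776 CPM, and had 19.0 to 20.6 CPM with MC38 and 14.4 to 15.3 CPM with LLC supernatant. Its differences were 0.42 in tumor monocytes (adjusted p 0.077) and 0.42 in culture (adjusted p 0.322), and in macrophages it was lower with MC38 by -1.0 ± 0.18. Without the 5 libraries with RNA of other tissues, Trim47 was called higher both in tumor monocytes (0.41, adjusted p 0.00638) and in culture (0.41, adjusted p 0.00152).

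**Figure D4:**
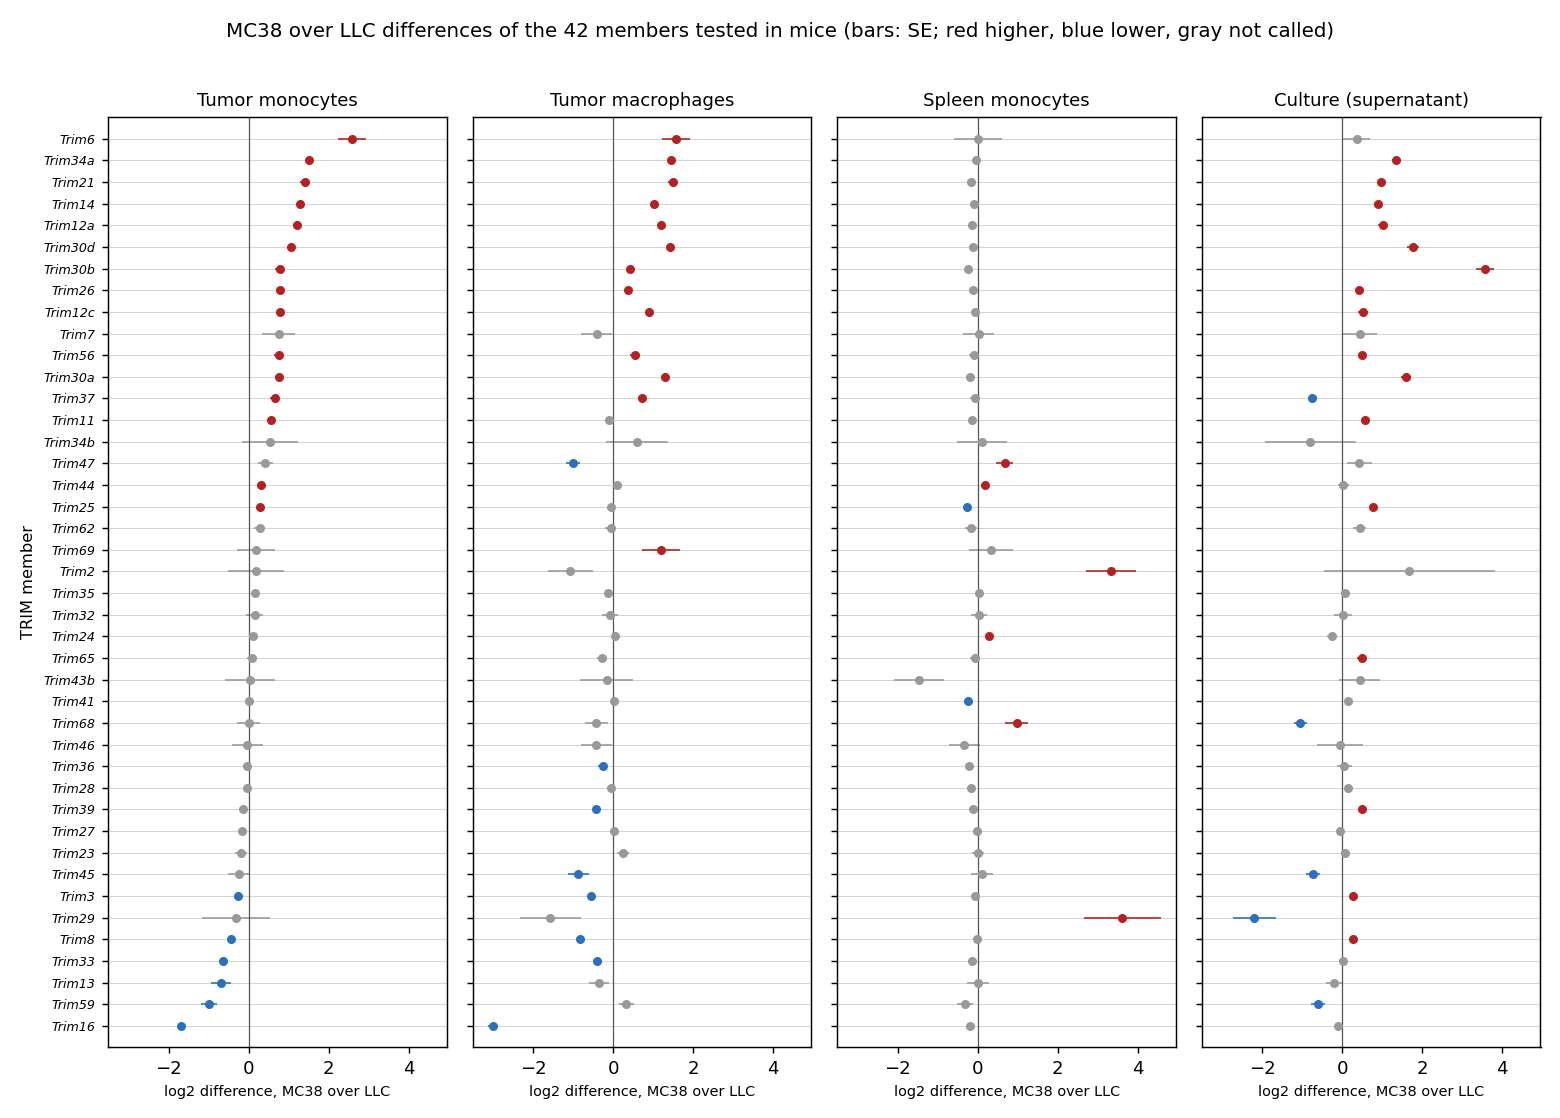
Log2 difference MC38 over LLC with its SE for the 42 members tested in mice, ordered by tumor monocytes, in tumor monocytes, tumor macrophages, spleen monocytes and culture (Trim69 was not tested in culture); red points were called higher, blue lower and gray not called. The red points of tumor monocytes from Trim6 down to Trim11 are gray and near 0 in spleen, and the high spleen points are Trim2 and Trim29.

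In macrophages 13 of 42 members were higher with MC38 and 8 lower, against 22.4% and 22.9% of all genes. Of the 12 members that follow, 10 were also higher there, and Trim11 and Trim25 (-0.05, adjusted p 0.661) were not; among genes tested in all 3 settings 7.08% were higher in each. Trim30a had 342, 407, 345 and 391 CPM in MC38 and 152, 164, 148 and 141 CPM in LLC macrophages. Its difference of 1.30 ± 0.09 was larger than that in monocytes by 0.55 (adjusted p 0.00265), whereas the Trim26 difference of 0.37 was smaller by 0.41 (-0.41, adjusted p 0.00308). The change of the MC38 difference between macrophages and monocytes was called higher for 2 of 42 members and lower for 5, against 6.25% and 8.27% of all genes.

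Most of the 12 members that follow, but not the family as a whole, had less mRNA in macrophages than in monocytes of the same tumor. With MC38, 12 of 42 members were higher in macrophages and 15 lower (24.8% and 27.9% of all genes), and the 12 that follow, chosen for high values in MC38 monocytes, were among the lower. With LLC 14 were higher and 12 lower (29.2% and 26.3%), and 9 of the 12 that follow were lower. Trim30b changed most of these, from 46.2 to 52.4 CPM in MC38 monocytes to 11.3 to 13 CPM in MC38 macrophages (-2.01 ± 0.11). Trim28 went the other way in both tumors, higher in macrophages by 0.54 with MC38 and 0.54 with LLC.

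In spleen monocytes 6 of 42 members were higher in mice with MC38 and 2 lower, against 14.4% and 14% of all genes (28.4% in either direction). Among the 12 that follow, Trim25 alone was called, and lower (-0.28, adjusted p 0.0227), a call lost with RLE scaling (0.0565), upper quartile scaling (0.0703), no filter (0.0506) and only the groups compared (0.191), without MC38 spleen replicate 3 (0.124) or LLC spleen replicate 3 (0.103), and without the libraries carrying RNA of other tissues (0.946). The difference between the tumor and the spleen difference was called higher for 14 of 42 members and lower for 5 (23.8% and 19.1% of all genes), and the 12 that follow were among the higher, from 0.57 for Trim25 to 1.57 for Trim21. The 12 were chosen on the tumor monocyte values that this contrast reuses, so their calls there describe them and support nothing. For Trim25 it was 0.36 and not called (adjusted p 0.0892) without the libraries carrying RNA of other tissues, which leaves 1 MC38 spleen library.

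Trim2, an NHL repeat member called higher in MC38 spleen (3.33), was high in the libraries with fat RNA. It had 3, 1.68 and 3.04 CPM in MC38 spleen replicates 1 to 3 and 0.0661 CPM in replicate 4, where the fat genes summed to 2.58 CPM. Trim67 likewise had 1.71, 1.25 and 2.17 CPM in the first 3 and 0 in the fourth. Trim2 also reached 11.5 CPM in Control replicate 2 and 10.8 CPM in MC38 supernatant replicate 3, and Trim9, a neuronal ligase, 5.22 and 2.06 CPM there. These are the libraries with RNA of other tissues, and their part in the spleen calls was not tested. Leaving them out keeps 1 MC38 spleen library, assumed to vary like the other groups, and edgeR then called 6 genes higher and 16 lower of all 13802 tested and 0 of 44 members in place of 8, with 3 at an unadjusted p under 0.05 (DESeq2 was not run on that set).

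Tumor monocytes were also set against spleen monocytes of mice with the same tumor. MC38 tumor monocytes were higher than spleen monocytes in 16 of 42 members and lower in 12 (33.5% and 36.6% of all genes), and 11 of the 12 that follow were higher, Trim12c being the exception (0.05, adjusted p 0.552). LLC tumor monocytes were higher in 10 and lower in 16 (28.6% and 34%). Of the 12, Trim25, Trim30a, Trim30b and Trim30d rose with LLC and Trim11, Trim12a, Trim12c, Trim14, Trim26 and Trim34a fell. Trim12a had 54.5 to 63.1 CPM in LLC spleen, 32.7 to 41.4 CPM in LLC tumor monocytes (-0.69 ± 0.08) and 79.7 to 84.1 CPM in MC38 tumor monocytes. The fall of Trim11 (-0.19, adjusted p 0.0438) was lost with RLE scaling (0.117), DESeq2 (0.131), no filter (0.0777) and only the groups compared (0.0771), and without any of 3 single LLC tumor monocyte libraries (replicates 1, 2 and 4) or 3 LLC spleen libraries (replicates 1, 3 and 4; 0.0655 to 0.147). Trim30b kept its rise except without LLC tumor monocyte replicate 2 (0.0577) or 4 (0.0616).

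In culture MC38 supernatant raised 20 of 41 members over Control and lowered 12 (35.4% and 32.5% of all genes), and LLC supernatant raised 13 and lowered 14 (32.3% and 36.1%). Of the 12 that follow, 9 rose with MC38 supernatant, and 3 rose (Trim14, Trim25 and Trim30d) and 4 fell (Trim11, Trim12a, Trim30b and Trim56) with LLC supernatant. The Trim14 rise with LLC supernatant (0.31) was lost without LLC supernatant replicate 1 (adjusted p 0.0561). These comparisons share the Control libraries. Comparisons that reuse the tumor monocyte or supernatant libraries on which the 12 were chosen, against spleen or Control, describe them only. Over all 34 libraries the tumor difference exceeded the culture difference for 8 of 45 members and was below it for 9 (14.8% and 16% of 14582 genes). For the interferon yardstick it was below in 21 of 24 genes, whereas of the 12 that follow it was above in Trim14, Trim21 and Trim26 and below in Trim25, Trim30a, Trim30b and Trim30d. The Trim25 value (-0.44, adjusted p 0.025) was lost without LLC supernatant replicate 1 (0.0554) or 3 (0.0521) or MC38 supernatant replicate 2 (0.0554).

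Of 22 genes that work with TRIM ligases, 6 were higher and 4 lower in tumor monocytes and 8 higher and 3 lower in culture. Their medians were -0.09 and 0.21. In tumor monocytes these shares are near the 26.8% and 22% of all genes. In culture 21.6% of all genes were higher and 18.5% lower. The genes of this list named next were chosen after their values were seen. Uba7 and Ube2l6, the activating and conjugating enzymes of the ISG15 modifier, differed by 1.42 ± 0.11 and 1.36 ± 0.09 in tumor monocytes and by 1.08 and 1.40 in culture. Herc6, the mouse ISG15 ligase, differed by 1.29 and 1.65, and Rnf135 (Riplet), a RIG-I ligase, by 1.02 and 1.11. Each of these 4 was called in both and also in macrophages, and none in spleen. Of 3 family genes outside the name rule, 2 were called higher in each of these comparisons: Pml (TRIM19), the scaffold of nuclear bodies, differed by 0.77, 1.15 and 1.03 in tumor monocytes, macrophages and culture, and Mid1 (TRIM18), a microtubule-associated ligase, by 2.06, 0.69 and 1.31, all called. In spleen Pml was called lower with MC38 (-0.26) and Mid1 was not called (-0.15). Mid2, the third, was called in none of tumor monocytes, macrophages and culture, and was called higher in MC38 spleen on 3.71, 2.89, 4.01 and 0 CPM, the first 3 being the libraries with fat RNA.

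Low levels kept 24 members from a test in either fit. Of these, 5 had 0 counts in all 34 libraries (Trim31, Trim40, Trim42, Trim60 and Trim75), and Trim67 and Trim9 alone passed 1 CPM in a group mean, in groups with RNA of other tissues. Tests covered the members that passed the filter on low counts, so counts of called members are shares of those tested and not of all 66.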

How the data were processed

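RNA of 34 libraries was sequenced from sorted mouse cells with a stranded mRNA kit, and reads were processed with CASAVA 1.8.2 and the GRCm38/mm10 build, per the submitters' processing notes and the labels' protocols. The authors deposited estimated counts per gene, of which 14.6% were not whole; for the aligner, the counter and the use of strand the labels and notes name nothing. These estimated counts, as deposited by the authors, were rounded to whole numbers. The design had assumed raw counts, and the same test was kept. Of 24475 rows, 24375 matched a symbol and 100 (1.43% of counts) did not. Library totals were 13047724 to 26966603, which sets the precision of low genes.

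edgeR 4.0.16 (R 4.3.3) was fitted with TMM scaling, filterByExpr and the robust quasi-likelihood test to the 24 libraries from mice and the 10 from culture, and to all 34 for the difference between tumor and culture. Adjusted p-values are Benjamini-Hochberg over all genes tested. Intervals are approximate 95% intervals from the SE and the normal distribution, not from the test itself. DESeq2 1.42.0, RLE and upper quartile scaling, no filter, a filter of 5 CPM in 3 libraries, only the groups compared, a replicate block, summed paralogs and leaving out libraries were alternatives. The fits were tested on simulated data. The 48 pairs of replicates compared all differed beyond counting noise. An ISRE-type and a GAS-type motif were searched in RefSeq promoter windows.

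Members and lists were chosen with earlier results of these data known. Members named with values were up to 8 that follow by the smaller of their 2 differences, those with opposite calls, up to 5 lower in both, up to 6 called in 1 comparison only by size, the 5 most abundant called in neither, and the cluster and chromatin members. Trim25, Trim26, Trim56, Trim2, Trim9, Trim39, Trim44, Trim65 and Trim67 were named after their values were seen. Trim5 and Trim30c were not analysed here.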

Additional observations from a re-analysis of the deposited data

Results flagged for a closer look

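Among 195 sets of 1 named member in 1 group of 4 libraries, 15 had a library that stood apart from the other 3 by Dixon's test, where chance gives about 1 in 20 sets. Macrophages of MC38 tumors gave 6 of them, 5 in replicate 4: Trim28 at 124 CPM, Trim3 at 25.5 CPM, Trim35 at 48.3 CPM, Trim37 at 25.1 CPM and Trim59 at 10.6 CPM, beside Trim68 at 3.52 CPM in replicate 3. Replicate 4 is also the MC38 macrophage library with the most fat cell RNA (68.1 CPM, group median 6.17 CPM), and its part in these values was not tested. In LLC macrophages Trim14 (54.7 CPM) and Trim28 (128 CPM) stood apart in replicate 2 and Trim37 (11.7 CPM) in replicate 4. Trim12a stood apart in LLC tumor monocyte replicate 4 (41.4 CPM), in LLC spleen replicate 3 (63.1 CPM) and in Control replicate 2 (37.5 CPM). Trim56 did so in LLC spleen replicate 3 (37.9 CPM), Trim27 in Control replicate 2 (53.0 CPM) and Trim24 in Control replicate 4 (28.1 CPM). Some interferon response genes were also higher in LLC spleen replicate 3 than in the other LLC spleen libraries. Isg15 had 2949 counts against 608 to 1156, Ifit2 3221 against 748 to 1141 and Rsad2 3701 against 848 to 1097. Irf9 differed less (4297 against 2154 to 4148 counts). The part of that difference in the Trim12a and Trim56 values was not tested. Control replicate 2 carries RNA of other tissues, and the part of that RNA in the Trim12a and Trim27 values there was not tested.

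The MC38 over LLC difference changed between macrophages and tumor monocytes, by edgeR's test of the change itself, for 7 members. It was lower in macrophages for Trim11 (-0.66), Trim16 (-1.32), Trim26 (-0.41), Trim47 (-1.41) and Trim8 (-0.39), and higher for Trim30a (0.55) and Trim59 (1.31). The Trim8 value lost its call with no filter and without any of 13 single libraries (adjusted p 0.0501 to 0.133).

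Between tumor monocytes and culture the same test was passed by 15 named members. The tumor difference was higher for Trim14 (0.44), Trim21 (0.5), Trim24 (0.44), Trim26 (0.4), Trim37 (1.45), Trim6 (2.25) and Trim68 (1.1). It was lower for Trim16 (-1.54), Trim25 (-0.44), Trim3 (-0.47), Trim30a (-0.8), Trim30b (-2.75), Trim30d (-0.67), Trim33 (-0.6) and Trim8 (-0.66). The Trim68 value lost its call under 8 alternatives.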

How the results depend on the processing

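Of 6744 values of named members under alternatives, 6462 kept their direction and side of the threshold, 151 lost and 127 gained a call, and 4 turned direction. The 4 came from leaving out the 5 libraries with RNA of other tissues: Trim29 in spleen (-2.74) and in tumor minus spleen (2.43), and Trim47 in spleen (-0.48) and in tumor minus spleen (0.89, adjusted p 0.0316). The number of members called in spleen, 8, became 5 with the stricter filter, 1 with only the groups compared and 0 without those libraries, and ran from 2 to 20 when single libraries were left out; the cause was not tested. Calls over all genes in spleen changed with the setting too, so such changes were not particular to the members. They were 1903 higher and 1852 lower of 13200 in the main fit. With the stricter filter they were 1436 and 1660 of 10802, and with only the groups compared 465 and 548 of 11876. Without MC38 spleen replicate 4 they were 3086 and 3553 of 14051, and without replicate 3 1499 and 1026 of 13303. The 12 members that follow numbered 12 with each scaling, filter, DESeq2 and the replicate block, 13 with only the groups compared (Trim47 added), 14 without the 5 libraries with RNA of other tissues (Trim47 and Trim6 added) and 11 or 12 without single libraries. Correlations of same-numbered libraries ran from -0.394 to 0.336 and were not all above 0.1 in any pair of groups. The same-numbered library was the closest in 3 of 4 cases for macrophages and monocytes of each tumor. This also held between MC38 and LLC tumor monocytes and between MC38 and LLC spleen monocytes, and in 2 or fewer cases elsewhere. Whether same-numbered libraries share more than a number is thus not settled. The replicate block moved 7 calls past the threshold and 4 back. Upper quartile scaling shifted the median of all genes from -0.04 to -0.18 in MC38 tumor over spleen, from -0.02 to 0.09 in MC38 and from 0.06 to 0.21 in LLC macrophages over monocytes. Members near 1 CPM rest on few counts.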
